A study of Mus musculus with 4 samples.

Results

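The transcription factor family nuclear factor kappa B (NF-κB) and its own feedback regulators were followed as 10 genes in single-cell RNA-Seq (scRNA-Seq) data from cultured mouse B cells. The 10 members were fixed by name and looked up by symbol in the table of 31053 genes, where each was found in 1 row. The 5 subunits were *Nfkb1*, *Nfkb2*, *Rel*, *Rela*, and *Relb*, and the 5 inhibitors were *Nfkbia*, *Nfkbie*, *Nfkbiz*, *Tnfaip3*, and *Bcl3*. They were listed by name and not by a rule on measured values, although earlier results of these data were known. All 10 reached 10 unique molecular identifiers (UMIs) per 1000000 in at least 1 library, as did 7258 genes in all.

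NF-κB dimers are assembled from 5 subunits, of which *Rela*, *Relb*, and *Rel* (c-Rel) encode proteins that carry a transactivation domain, whereas *Nfkb1* and *Nfkb2* encode the precursors p105 and p100 that are processed to DNA-binding subunits. In resting cells, the cytoplasmic inhibitors IκBα (*Nfkbia*) and IκBε (*Nfkbie*) hold dimers back, and signals from Toll-like receptors (TLRs), the B cell receptor, or CD40 lead to their degradation. Many NF-κB dimers then switch on the genes of these same inhibitors, together with *Tnfaip3*, which encodes the ubiquitin-editing enzyme A20. *Nfkbiz* (IκBζ) and *Bcl3* encode nuclear IκB proteins, which can act as coactivators as well as repressors. In the sums and ratios below, they are still counted among the 5 inhibitors.

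The study compared 2 kinds of regulatory B cells (Bregs), with 2 replicate samples of each. All samples were WT splenic B cells from C57BL/6 mice, taken at 6 to 12 weeks of age, that had been cultured with CpG B ODN 1668, a TLR9 ligand, for 3 days. Bregs-CpG received nothing more, whereas Bregs-TLR were also given the TLR4 ligand LPS, the protein kinase C activator PMA, and the calcium ionophore ionomycin for the last 5 hours. CpG was therefore shared by both groups, and no sample of unstimulated B cells was part of these data. Whether a replicate came from 1 mouse or from a pool is not given in the sources used here.

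Cells were numbered by library, 5 to 8, and the labels do not tie these numbers to samples. No library was therefore placed in Bregs-CpG or Bregs-TLR, values are given for each library on its own, and no test between the groups and no p-value is given. After cells with fewer than 1000 genes or with 10% or more mitochondrial UMIs were left out, libraries 5, 6, 7, and 8 held 4196, 4714, 5621, and 4003 cells, and the median cell had 8752, 8785, 10355, and 10077 UMIs. Mitochondrial UMIs made up a median of 7.22% and 7.18% in libraries 5 and 6, against 4.61% and 4.65% in libraries 7 and 8. Of the barcode sequences, 29 occurred in more than 1 library, and no doublet caller was run. Markers of B cells were present in every library, but 5 of 6 were at least 2-fold lower in library 7 than in library 5 and in library 8 than in library 6 (11.5% of all genes), with *Ms4a1* (CD20) at 1499 and 1510.5 UMIs per 1000000 (CPM) in libraries 5 and 6 and 32.0 and 37.0 CPM in libraries 7 and 8. The summed markers of T cells, NK cells, and myeloid cells stayed at or below 0.788, 0.981, and 8.35 CPM, with 3 of 6, 4 of 5, and 4 of 8 markers at 0 UMIs in all libraries. Of 6 erythroid markers, 3 were at 0, and *Hbb-bt* alone made up nearly the whole sum, at 4.57, 4.30, 218, and 285 CPM in libraries 5 to 8. The part of these differences in the results below was not tested.

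Start-site sequences are shown because the members are known both as parts of NF-κB and as genes with NF-κB sites of their own. Of the 10 members, 7 had at least 1 window of 250 bases before to 50 bases after the start in the RefSeq promoter table (build GRCm38.p6), and *Nfkb1* (chr3:135584655-135691547), *Relb* (chr7:19606217-19629438), and *Nfkbiz* (chr16:55811375-55838899) were not in it. Their positions are those of the whole gene on the minus strand of GRCm38 in the GENCODE annotation. The κB consensus, a motif of 10 letters, was searched on both strands, and overlapping matches were kept. It was found for 6 of the 7 members, all but *Rela*, whereas it was found for 6.12% of the 5796 genes, members included, that were compared between libraries and had a window, and in 4.51% of all 32851 windows. These 150 bases run 5′ to 3′ from 120 bases before the start to 30 bases from the start on. Letters of a match that lies wholly within them are in capitals. For *Nfkb2* and *Tnfaip3*, the table had more than 1 window, and the one with the most matches is shown.
Nfkb2 (chr19:46304617-46304766, plus strand): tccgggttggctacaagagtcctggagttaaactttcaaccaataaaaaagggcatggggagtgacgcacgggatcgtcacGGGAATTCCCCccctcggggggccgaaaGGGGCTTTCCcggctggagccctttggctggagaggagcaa
Rel (chr11:23770940-23771089, minus strand): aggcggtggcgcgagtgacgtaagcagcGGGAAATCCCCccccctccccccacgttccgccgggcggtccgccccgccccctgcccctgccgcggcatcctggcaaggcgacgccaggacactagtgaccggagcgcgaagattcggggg
Rela (chr19:5637421-5637570, plus strand): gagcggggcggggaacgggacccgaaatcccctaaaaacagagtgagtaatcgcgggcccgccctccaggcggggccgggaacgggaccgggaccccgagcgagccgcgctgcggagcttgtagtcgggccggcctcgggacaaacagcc
Nfkbia (chr12:55492618-55492767, minus strand): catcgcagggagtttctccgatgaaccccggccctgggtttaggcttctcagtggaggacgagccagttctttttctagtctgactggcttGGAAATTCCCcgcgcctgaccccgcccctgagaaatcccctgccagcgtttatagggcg
Nfkbie (chr17:45555580-45555729, plus strand): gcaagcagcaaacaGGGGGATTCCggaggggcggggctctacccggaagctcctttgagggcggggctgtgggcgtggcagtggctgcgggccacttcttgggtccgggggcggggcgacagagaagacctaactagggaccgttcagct
Tnfaip3 (chr10:19015381-19015530, minus strand): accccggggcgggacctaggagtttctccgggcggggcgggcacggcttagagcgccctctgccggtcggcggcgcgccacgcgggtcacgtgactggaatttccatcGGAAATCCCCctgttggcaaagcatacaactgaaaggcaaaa
Bcl3 (chr7:19822726-19822875, minus strand): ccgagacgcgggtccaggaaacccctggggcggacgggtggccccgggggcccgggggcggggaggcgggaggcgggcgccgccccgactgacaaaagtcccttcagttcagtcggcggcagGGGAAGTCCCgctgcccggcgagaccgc
Counted from the start, with the base before it as position -1, the match began at -39 and -11 in *Nfkb2*, at -92 in *Rel*, at -29 in *Nfkbia*, at -106 in *Nfkbie*, at -12 in *Tnfaip3*, and at position 3 within the *Bcl3* transcript. A second match in *Tnfaip3*, at -125, began outside the stretch shown, and its letters within the stretch are not in capitals. In *Nfkb2* and *Rel*, the capitals hold overlapping matches on both strands. A match is a description of the sequence only. Binding was not measured, and a link of matches to levels was not tested.

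Of the 10 members, 9 were higher in both libraries 7 and 8 than in libraries 5 and 6, as were 56.2% of all genes, and *Nfkbiz* alone was lower, as were 36.6%. The size of the difference varied, from 2.87-fold between the highest and the lowest library for *Tnfaip3* to 1.36-fold for *Rela*. Exact Poisson 95% intervals cover counting error only. Relative to a member's CPM, the widest was that of *Tnfaip3* in library 5, with 14.99 CPM (13.9 to 16.2). A UMI stands for 1 captured molecule, and counts at the 3′ end were not divided by transcript length, so levels of different genes are captured UMIs and not transcript numbers.

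*Rel* encodes c-Rel, the subunit best known for its role in B cell activation, and it was the subunit with the most UMIs. It had 98.0 and 97.4 CPM in libraries 5 and 6, and 217 and 213 CPM in libraries 7 and 8. Libraries 5 and 6 lay within counting error of each other, as did libraries 7 and 8. Library 7 exceeded library 5 by 1.15 on the log2 scale (95% interval 1.10 to 1.20), and library 8 exceeded library 6 by 1.13 (1.08 to 1.18).

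*Nfkb1*, the gene of p105 and p50, had 81.6, 78.4, 145, and 130.3 CPM in libraries 5 to 8. Its gap between library 7 and library 5 was 0.83 (0.77 to 0.88) on the log2 scale, smaller than that of *Rel*. *Nfkb2*, the gene of p100 and p52 and the core of the noncanonical pathway, was the least abundant subunit by UMIs, at 15.5 and 16.7 CPM in libraries 5 and 6 and 34.5 and 31.3 CPM in libraries 7 and 8. Its log2 ratio of 1.15 (1.03 to 1.28) for library 7 over 5 matched that of *Rel*, while library 8 over 6 gave 0.91 (0.78 to 1.03).

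*Rela* and *Relb* moved least among the subunits. *Rela*, which encodes p65, had 32.1, 33.1, 43.6, and 40.5 CPM, and its log2 ratio was 0.44 (0.35 to 0.54) for library 7 over 5 and 0.29 (0.19 to 0.38) for library 8 over 6. *Relb*, the usual partner of p52, had 32.9, 36.0, 53.2, and 49.0 CPM, with log2 ratios of 0.69 (0.60 to 0.78) and 0.45 (0.36 to 0.54). For both genes, libraries 7 and 8 lay above libraries 5 and 6, with no overlap of the intervals. Over all 7258 genes, the median log2 ratio was 0.25 for library 7 over 5 and 0.15 for library 8 over 6, so the ratio of *Rela* exceeded the median gene by little.

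**Figure D1:**
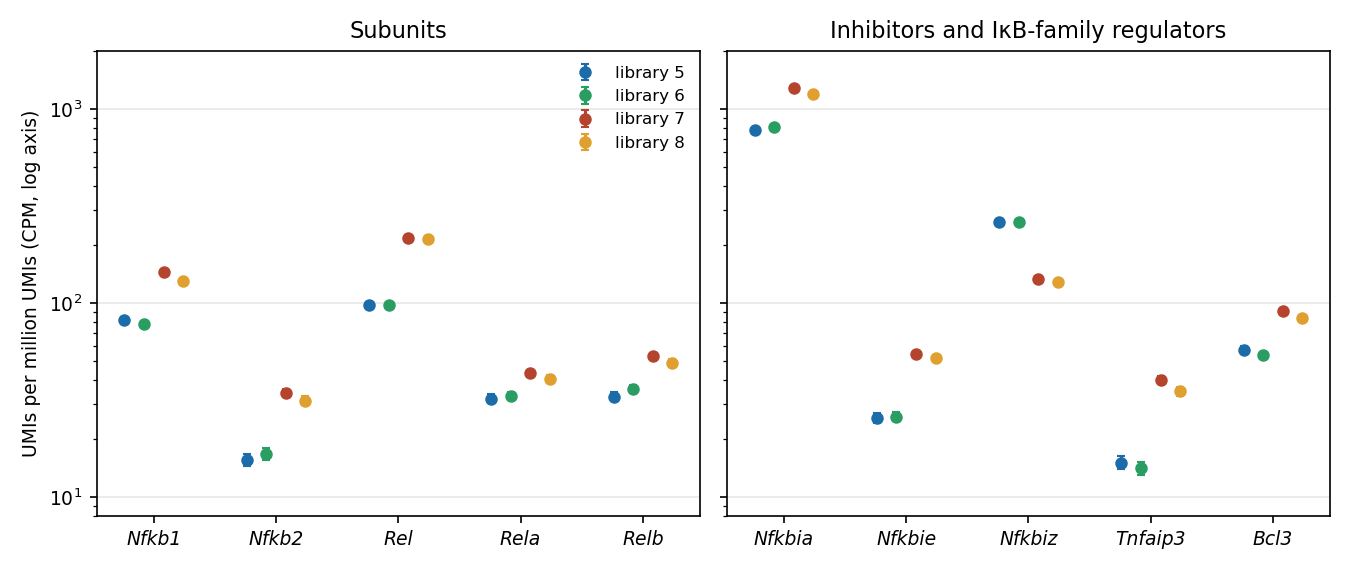
CPM of each member (log axis) in libraries 5 to 8, with subunits on the left and inhibitors on the right; bars are exact Poisson 95% intervals, most of them smaller than the points. *Nfkbiz* is the only gene with its points for libraries 7 and 8 (133 and 128 CPM) under those for libraries 5 and 6 (262 and 263 CPM).

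*Nfkbia*, the gene of IκBα and a classic early target of NF-κB, was by far the most abundant member. It had 778 CPM (770 to 786) in library 5, 813 CPM (805 to 821) in library 6, 1291 CPM (1283 to 1300.2) in library 7, and 1191 CPM (1181 to 1201) in library 8. Every library lay outside the interval of the others, and libraries 7 and 8 were the higher ones. The log2 ratio was 0.73 (0.71 to 0.75) for library 7 over 5 and 0.55 (0.53 to 0.57) for library 8 over 6.

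*Nfkbie*, the gene of IκBε, which in B cells is known to restrain c-Rel and p65 dimers, had 25.5, 25.9, 54.5, and 52.0 CPM. Its log2 ratios of 1.10 (1.00 to 1.19) and 1.01 (0.91 to 1.10) stood above those of *Nfkbia*. *Tnfaip3*, the gene of A20, was the least abundant inhibitor, at 14.99, 14.0, 40.2, and 35.0 CPM, and it had the highest ratios of all members. Library 7 exceeded library 5 by 1.42 (1.30 to 1.55), and library 8 exceeded library 6 by 1.32 (1.19 to 1.45), both on the log2 scale.

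*Bcl3*, the nuclear IκB protein that binds p50 and p52 homodimers, had 57.4, 53.6, 91.3, and 83.8 CPM, with log2 ratios of 0.67 (0.60 to 0.74) and 0.64 (0.57 to 0.72). *Nfkbiz*, the other nuclear IκB protein and a known TLR-induced regulator, had 262 CPM (257 to 267) and 263 CPM (259 to 268) in libraries 5 and 6 and only 133 CPM (130 to 135) and 128 CPM (125 to 131) in libraries 7 and 8. Its log2 ratio was -0.98 (-1.02 to -0.94) for library 7 over 5 and -1.04 (-1.08 to -0.99) for library 8 over 6. The 2 nuclear IκB genes thus stood on opposite sides of 0.

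**Figure D2:**
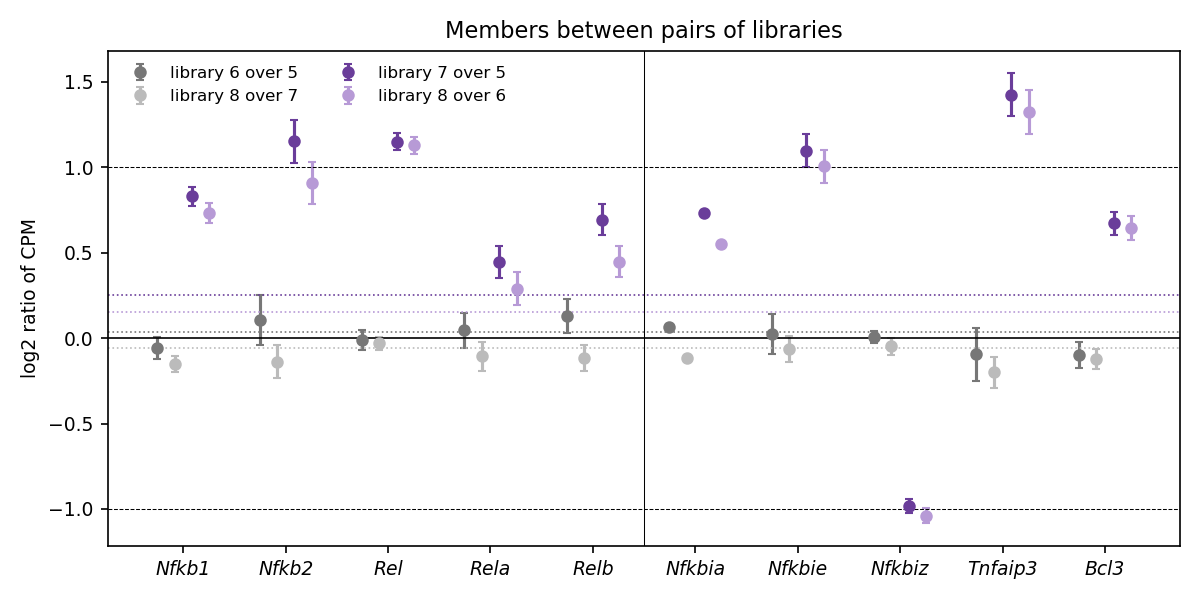
log2 ratios of CPM for 4 pairs of libraries, with exact conditional 95% intervals; dotted lines are the medians of all 7258 genes for the same pairs, and dashed lines mark 2-fold. Ratios within the pairs 6 over 5 and 8 over 7 lie between -0.20 and 0.13, whereas 7 over 5 and 8 over 6 reach 1.42 and 1.32 for *Tnfaip3*.

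Between libraries 5 and 6, the intervals of 7 of 10 members held 0, 2 lay above 0 (19.1% of all genes) and 1 below (6.09%), and the ratios ran from -0.10 for *Bcl3* to 0.13 for *Relb* on the log2 scale. Between libraries 7 and 8, all 10 members were lower in library 8, by 0.03 for *Rel* to 0.20 for *Tnfaip3*, and the intervals of 8 lay below 0 (33.9% of all genes) and none above it (6.23%). Most genes were lower in library 8 as well, since only 25.6% of all genes had a log2 ratio above 0. The median gene was lower by 0.06. In each of the 4 pairings of library 7 or 8 with library 5 or 6, all 10 intervals excluded 0, with 9 members higher and 1 lower. At this depth most genes had such intervals, with 57.3% of all genes above 0 and 34.1% below it for library 7 over 5, 55.8% and 35.7% for 7 over 6, 54.1% and 35.7% for 8 over 5, and 52.4% and 37.3% for 8 over 6.

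At the limit of 2-fold, 5 of 10 members were apart between their highest and lowest library, namely *Nfkb2*, *Rel*, *Nfkbie*, *Nfkbiz*, and *Tnfaip3*, against 31.3% of all 7258 genes. With mitochondrial, ribosomal protein, and immunoglobulin genes left out of the denominator, *Nfkb2* and *Nfkbie* fell short (log2 ratios at most 0.96 and 0.90). *Rel* lay at the limit (1.00), so that 3 members were 2-fold apart (30.2% of all genes). *Nfkbie* also fell short with TMM (0.98) and DESeq2 (0.99) scaling and among cells with 5% to under 10% mitochondrial UMIs (0.96), and *Nfkbiz* among cells under 5% (-0.90) and with the mean of each cell's CPM (-0.99). In library 7 over 5, 4 members were at least 2-fold higher (16.9% of all genes) and none was 2-fold lower (11.8%). In library 8 over 6, 3 were higher (14.4%) and 1, *Nfkbiz*, was lower (13%). The median of the members was 0.78 and 0.69 on the log2 scale in these pairs, against 0.25 and 0.15 for all genes, and with genes chosen by name this compares descriptions, not a test. Fold changes as large as that of *Tnfaip3* were found in 16.2% of all genes, and as large as that of *Rela* in 68.0%. Of all genes 2-fold apart in library 7 over 5, 58.8% were higher in library 7, and this share was 45.2% with that other denominator. The signs of all 40 member ratios across these library pairs remained under all 11 alternatives tried.

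The summed subunits and the summed inhibitors differed between libraries by unequal factors. Summed over the 5 subunits, libraries 5 and 6 held 260.2 and 262 CPM, and libraries 7 and 8 held 494 and 464 CPM. Summed over the 5 inhibitors, they held 1138, 1169.6, 1610.0, and 1490.0 CPM. Library 7 thus exceeded library 5 by 0.92 (0.89 to 0.95) on the log2 scale in subunits and by 0.50 (0.49 to 0.52) in inhibitors. Library 8 exceeded library 6 by 0.83 (0.80 to 0.86) and 0.35 (0.33 to 0.37). For inhibitors without *Nfkbiz*, these pairs gave 0.75 (0.74 to 0.77) and 0.59 (0.57 to 0.60). By gene, the median log2 ratio in these pairs was 0.83 and 0.73 for subunits and 0.73 and 0.64 for inhibitors.

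The ratio of inhibitor to subunit UMIs, which does not depend on how a library is scaled, was 4.37 (4.29 to 4.46) in library 5, 4.47 (4.39 to 4.56) in library 6, 3.26 (3.22 to 3.30) in library 7, and 3.21 (3.16 to 3.26) in library 8. Libraries 7 and 8 were lower, and their intervals stood clear of those of libraries 5 and 6. *Nfkbia* held 68.4%, 69.5%, 80.2%, and 79.9% of inhibitor UMIs in libraries 5 to 8, and *Nfkbiz* held 23.0%, 22.5%, 8.23%, and 8.60%. Without *Nfkbia*, the ratio was 1.38, 1.36, 0.646, and 0.645. Without the nuclear proteins *Nfkbiz* and *Bcl3*, it was 3.15, 3.26, 2.81, and 2.76, so the order of the libraries was kept and the gap was smaller. *Rel* held 37.7% and 37.2% of subunit UMIs in libraries 5 and 6 and 44.0% and 45.9% in libraries 7 and 8.

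In libraries 5 and 6, this ratio was lower in cells with a lower mitochondrial share, whereas in libraries 7 and 8 it was slightly higher in them, with overlapping intervals. Among cells with under 5% mitochondrial UMIs, of which libraries 5 and 6 had only 143 and 207, the ratio was 3.72 (3.33 to 4.16) and 3.54 (3.24 to 3.88), against 3.30 (3.25 to 3.36) and 3.25 (3.19 to 3.32) in libraries 7 and 8, and the interval of library 6 overlapped those of both, as did that of library 5 with library 7. Among cells with 5% to under 10%, a split chosen after the data were seen, it was 4.40, 4.52, 3.19, and 3.14. In the cells with the lower mitochondrial share, the intervals thus overlapped for 3 of the 4 pairings of library 5 or 6 with library 7 or 8. *Nfkbiz* itself remained higher in libraries 5 and 6 among cells under 5%, at 232 and 208 CPM against 133 and 125 CPM, and *Rel* remained lower, at 94.9 and 109.9 CPM against 220.0 and 214 CPM.

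**Figure D3:**
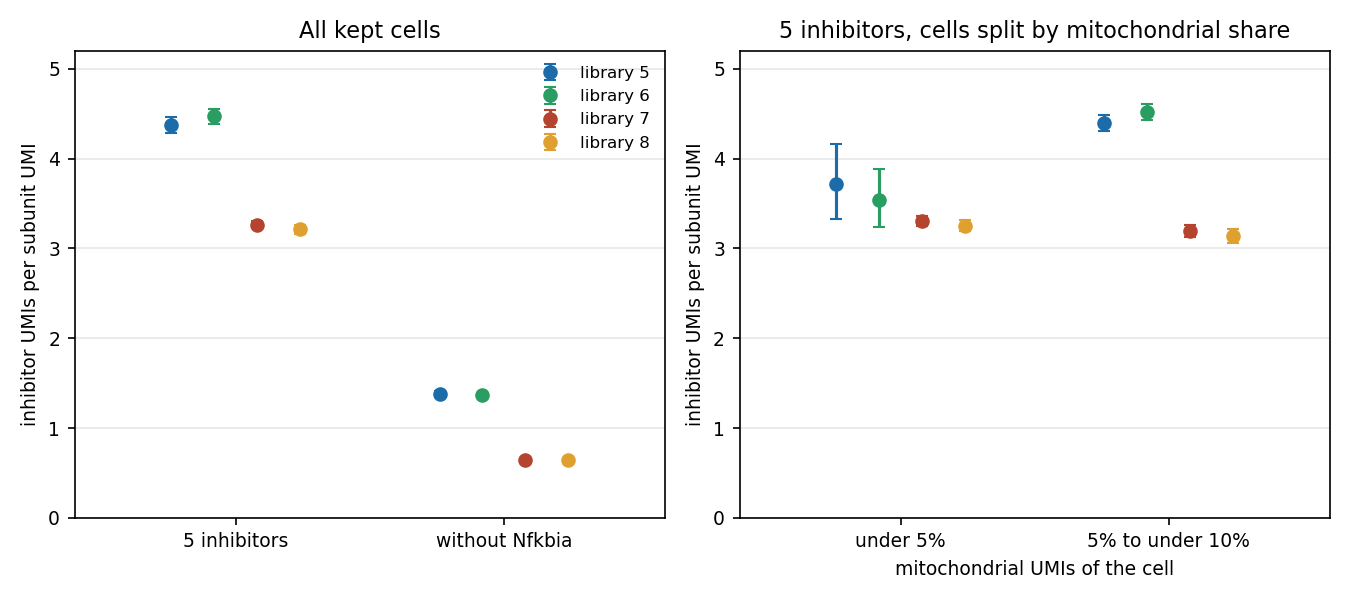
Inhibitor UMIs per subunit UMI in each library, with 95% intervals for counting error. On the left, all kept cells with all 5 inhibitors or without *Nfkbia*, and on the right, cells split by their share of mitochondrial UMIs, where the points under 5% lie closer together (3.72, 3.54, 3.30, and 3.25) than those from 5% to under 10%.

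Clustering with all 10 members left out gave 7 clusters, named A to G by size, and 6 of them came almost wholly from libraries 5 and 6 or from libraries 7 and 8. Clusters B (6974 cells), D (887), and E (877) lay in libraries 5 and 6, and clusters A (6998), C (2002), and F (524) in libraries 7 and 8. Clusters D and F were led by mitotic genes such as *Mki67* and *Cdk1*, and cluster C by replication genes such as *Mcm3*. Cluster E was led by *Ccl3*, and cluster G, with 272 cells and *Jchain* as the leading gene, was the only cluster with at least 50 cells on both sides. It had 1 plasma cell marker among its 10 leading genes and was given no cell type name.

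Cluster E stood apart from cluster B within the same libraries, since 8 of 10 members were higher in E in library 5 and in library 6, with intervals that excluded 0, against 32.2% and 30.3% of all genes. The median log2 ratio of the members was 0.53 and 0.38, and that of all genes was 0.06 and 0.04. *Nfkb1* had 130.0 and 120.5 CPM in cluster E of libraries 5 and 6, and cluster B had 72.8 and 71.6 CPM, which gave log2 ratios of 0.84 (0.71 to 0.96) and 0.75 (0.62 to 0.88). *Nfkbie* was higher by 0.68 (0.45 to 0.91) and 0.67 (0.45 to 0.89), *Nfkbia* by 0.38 and 0.35, and *Tnfaip3* by 0.78 (0.47 to 1.08) and 0.44 (0.10 to 0.77), all on the log2 scale. *Nfkbiz* was also higher in cluster E, by 0.29 and 0.21, and its 316 and 312 CPM there were the highest of any cluster. *Bcl3* alone was lower (22.9% and 22.8% of all genes), by 0.53 (0.32 to 0.74) in library 5 and 0.21 (0.03 to 0.41) in library 6, and the intervals of *Rela* held 0. The chemokine gene *Ccl4*, a known NF-κB target, had 366 CPM in cluster E and 13.8 CPM in cluster B over all libraries.

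In clusters D and F, which were led by mitotic genes, members lay on both sides of the main cluster of their libraries. In cluster F, the gene *Nfkbie* was lower than in cluster A by 0.63 (0.41 to 0.86) in library 7 and by 1.21 (0.92 to 1.51) in library 8, while *Rel* was higher by 0.17 and 0.22. *Nfkbia* was lower in cluster F by 0.43 and 0.37. In cluster D, the largest gap from cluster B in library 5 was that of *Nfkbie*, lower by 0.43 (0.17 to 0.69). In library 6, *Nfkbie* was lower by 0.23 (0.00 to 0.46), but the largest gap was that of *Tnfaip3*, higher by 0.41 (0.13 to 0.67). *Tnfaip3* was higher by 0.29 in library 5, where its interval held 0 (-0.01 to 0.58). Clusters D and F differed in this gene, since cluster F had less *Tnfaip3* than cluster A, by 0.40 in library 7 and 0.39 in library 8. Cluster C, led by replication genes, also had less *Tnfaip3* than cluster A. It had 34.3 and 30.1 CPM in libraries 7 and 8, against 43.5 and 37.7 CPM in cluster A. *Rel* was higher in cluster D by 0.27 and 0.21.

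The inhibitor-to-subunit ratio within clusters was highest in cluster B, at 4.73 (4.61 to 4.85) in library 5 and 4.79 (4.68 to 4.90) in library 6, and lowest in cluster F, at 2.54 in libraries 7 and 8 alike. Clusters D and E had 3.79 each in library 5 and 3.60 and 4.30 in library 6. Clusters A and C had 3.42 and 3.103 in library 7 and 3.42 and 2.97 in library 8. The interval of cluster D in library 6 (3.44 to 3.76) overlapped that of cluster A in library 7 (3.37 to 3.47), whereas those of cluster B stood clear of all others.

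**Figure D4:**
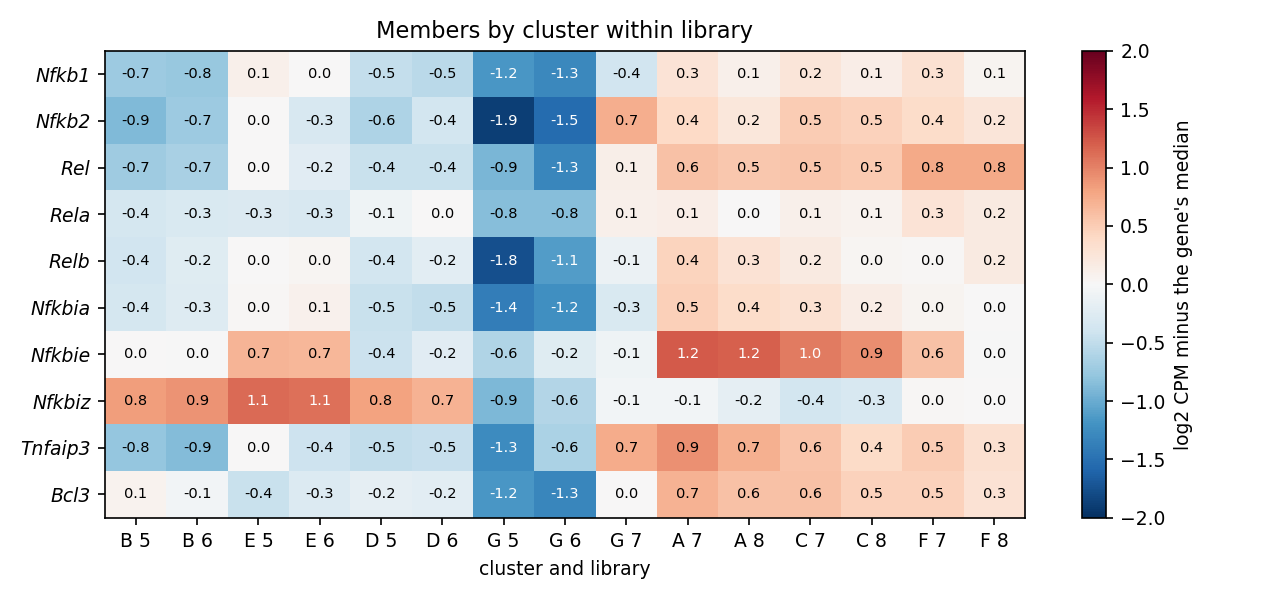
Members (rows) in each cluster within a library of at least 50 cells (columns, cluster letter and library), as log2 CPM minus the gene's median over the 15 columns. *Nfkbiz* is above its median in clusters B, D, and E and below it in clusters A, C, and G of every library shown, while cluster G of libraries 5 and 6 is low for nearly all members.

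Cluster G allowed libraries to be compared within 1 cluster. It held 69, 115, and 58 cells in libraries 5, 6, and 7, and its 30 cells of library 8 were too few for a value. In libraries 5 and 6, its members were low, with *Nfkbia* at 378 and 418 CPM, and in library 7 *Nfkbia* had 792 CPM, a log2 ratio of 1.07 (0.86 to 1.28) over library 5. *Rel* had 77.2, 59.0, and 157 CPM in libraries 5, 6, and 7. *Nfkbiz* had 77.2, 96.8, and 139.7 CPM, so that in cluster G it was higher in library 7 than in library 5 by 0.86 (0.38 to 1.34) and than in library 6 by 0.53 (0.14 to 0.92) on the log2 scale, opposite in sign to its ratio over all cells. These ratios rest on 56, 110, and 112 UMIs of *Nfkbiz*, out of 368, 653, and 844 inhibitor UMIs. Its share of inhibitor UMIs was thus not higher in library 7. The other members were also higher in cluster G of library 7 than of library 5, but the CPM intervals of *Nfkb1*, *Rela*, and *Nfkbie* overlapped. For *Nfkbie*, the values were 23.7 CPM (14.3 to 37.0) and 16.5 CPM (8.55 to 28.9), from 19 and 12 UMIs. Summed subunits had 172, 158, and 373 CPM in cluster G of libraries 5, 6, and 7, and summed inhibitors had 507, 575, and 1053 CPM. No median of all genes is given for these pairs. Immunoglobulin genes such as *Igkc* were among the leading genes of cluster G and count in the total behind CPM. Their part in these levels was not tested. The inhibitor-to-subunit ratio in cluster G was 2.94 (2.40 to 3.64), 3.63 (3.07 to 4.30), and 2.82 (2.47 to 3.23), and the interval of library 7 overlapped those of libraries 5 and 6.

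Across the 15 combinations of cluster and library, the levels of the 9 members other than *Nfkbiz* were positively correlated. Pearson's r of log2(CPM + 1) ran from 0.51 to 0.96 over their 36 pairs. The pairs of *Nfkbiz* with the others had r from -0.24 to 0.33. The points share libraries and depth, so these values are descriptions. They also hold the differences between libraries given above, in which *Nfkbiz* was already seen to stand alone. No range of r over all genes is given. Within libraries, members did not all move alike, with *Bcl3* lower in cluster E and *Nfkbie* lower in clusters C, D, and F. Among the 2338 genes with at least 50 CPM, the most similar to *Rel* were *Abracl* (r = 0.98) and *Med8* (0.98), to *Nfkbia* *Ifngr2* (0.98) and *Arpc1b* (0.98), to *Nfkb1* *C1qbp* (0.98) and *St13* (0.98), to *Tnfaip3* *Mphosph10* (0.97) and *Eif6* (0.97), and to *Nfkb2* *Gpatch4* (0.97) and *Cul1* (0.97). For *Relb* they were *Thumpd3* (0.97) and *Spg21* (0.96), for *Rela* *Larp4b* (0.96) and *Srsf1* (0.96), for *Bcl3* *Spg21* (0.95) and *Slc39a10* (0.95), for *Nfkbie* *Bccip* (0.94) and *Txndc9* (0.94), and for *Nfkbiz* *Txnrd1* (0.95) and *Sypl* (0.93). The order depended on the measure. By Spearman's rho, *Thumpd3* and *Spg21* took ranks 238 and 99 for *Relb*, and *Med8* took rank 90 for *Rel*. By the same measure, *Cul1*, *Ifngr2*, and *Mphosph10* took rank 1 for *Nfkb2*, *Nfkbia*, and *Tnfaip3*.

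The variance-to-mean ratio over the cells of a library was highest for *Nfkbia* and *Nfkbiz*, and it rises with the mean of any gene that varies among cells, so it does not rank the members by their variation. With each cell thinned to 5000 UMIs, which left out between 114 and 233 shallower cells per library, *Nfkbia* had means of 3.90, 4.09, 6.57, and 6.12 UMIs per cell in libraries 5 to 8 and a ratio of 1.90, 1.88, 2.68, and 2.62, where counting noise alone gives a ratio near 1. Before thinning, the means were 8.32, 8.90, 14.6, and 13.6. *Nfkbiz* had thinned means of 1.25, 1.29, 0.658, and 0.632 UMIs per cell (from 1.46 in library 8 to 2.88 in library 6 before), and its variance-to-mean ratio was higher in libraries 7 and 8 (1.74 and 1.59) than in libraries 5 and 6 (1.33 and 1.36), although its mean was lower there. In library 7, the cell with the most *Nfkbiz* had 17 UMIs, while the median cell had 0. The other 8 members had ratios from 0.982 to 1.34. Correlations between members across cells were weak, with the highest r at 0.15, and nothing was read from them.

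Other genes of the pathway moved in their own ways. Of 15 other IκB proteins and feedback regulators, 1 was at least 2-fold higher in both library 7 over 5 and library 8 over 6 (14% of all genes) and none was lower (11.5%), with a median log2 ratio of 0.23 and 0.15, near that of all genes. That gene, *Tnip1*, encodes a partner of A20 and had 38.7, 37.6, 89.6, and 89.4 CPM in libraries 5 to 8. *Tax1bp1*, the most abundant of the list and another A20 adaptor, had 168, 173, 139, and 135 CPM. *Itch*, a ubiquitin ligase that works with A20, had the lowest ratio, with 52.0, 55.3, 43.0, and 40.8 CPM. None of the 7 tested genes of the IκB kinase list was 2-fold apart between its highest and lowest library, against 31.3% of all genes. Their medians were 0.13 and 0.06. *Ikbkb*, the catalytic subunit that phosphorylates IκBα, had 70.4, 71.7, 46.6, and 47.0 CPM, *Map3k14*, the kinase of the noncanonical pathway, had 17.1, 17.8, 11.2, and 10.9 CPM, and *Map3k7* (TAK1) had 11.8, 11.6, 14.9, and 14.1 CPM.

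The Toll-like receptor arm was lower in libraries 7 and 8 where it passed 2-fold, and the TNF receptor arm was mixed. In the Toll-like receptor arm, 2 of 10 genes were at least 2-fold lower in both pairs (11.5% of all genes) and none was higher (14%). The log2 medians were -0.47 and -0.67. *Unc93b1*, which carries TLR9 to the endosome, had 417, 447, 51.7, and 47.6 CPM, while *Irak1* had 29.8, 30.9, 37.3, and 35.3 CPM. In the TNF receptor arm, with medians of 0.08 and -0.04, 2 of 12 genes were at least 2-fold higher in both pairs (14% of all genes), *Traf1*, with 51.1, 49.2, 147, and 144 CPM, and *Tnfrsf1b*, with 3.23, 3.85, 10.1, and 9.85 CPM. *Tnfrsf13b* (TACI), its most abundant gene, had 259, 270.4, 278, and 287 CPM, and *Traf5* had 40.4, 45.8, 20.2, and 17.7 CPM.

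Of 25 tested NF-κB target genes, 11 were at least 2-fold higher (14% of all genes) and 5 at least 2-fold lower (11.5%) in both pairs, with a median log2 ratio of 0.68 and 0.52. *Cd86*, a costimulatory ligand, had 3.52, 3.91, 98.0, and 97.0 CPM, and *Ltb*, the gene of lymphotoxin β, had 416, 439.8, 7.56, and 10.6 CPM. *Cd83*, the most abundant target, had 497, 504, 490.2, and 466 CPM. The targets thus moved in both directions, with *Cd83* among those that stayed within 2-fold.

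**Figure D5:**
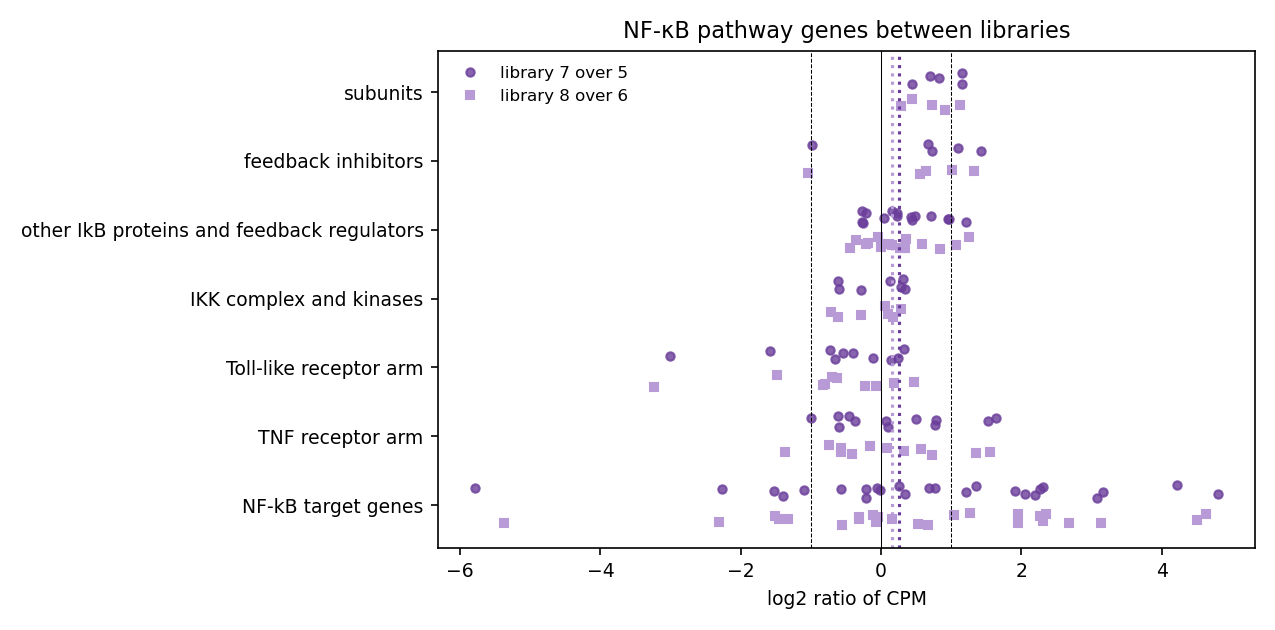
log2 ratio of CPM of every tested gene in 7 lists of the NF-κB pathway, for library 7 over 5 (circles) and library 8 over 6 (squares). Dotted lines are the medians of all genes (0.25 and 0.15) and dashed lines mark 2-fold; the targets spread from *Ltb* at -5.78 to *Cd86* at 4.80 for library 7 over 5.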

How the data were processed

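Libraries were 10x Genomics droplet libraries of transcript 3′ ends (v3 chemistry). The authors demultiplexed reads with bcl2fastq, counted UMIs per gene and cell with Cell Ranger (version 3.1.0, mouse mm10), and combined the libraries with its aggr step, which evens out sequencing depth. The deposited counts are whole numbers of UMIs, with no further scaling. Of 35989 matrix columns, 19920 have a barcode. The last 19920 columns were taken as the barcodes in order, since mean expression shifted at columns 16069 and 25835, where libraries 5 and 7 would start (percentiles 99.4 and 100.0 of all columns). At the starts of libraries 6 and 8 the shift was at percentiles 56.5 and 91.4. The first 16069 columns were not used here.

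Cells with at least 1000 genes and under 10% mitochondrial UMIs were kept (18534 of 19920). UMIs were summed over the cells of a library or cluster and divided by its total to give CPM, with exact Poisson intervals. Ratios have exact conditional 95% intervals. Genes with at least 10 CPM in at least 1 library were compared, and 2-fold was the limit. Cells were clustered on 1964 of 2000 variable genes, 20 principal components, and 20 neighbors at a resolution of 0.3 (scikit-learn, version 1.9.0, and igraph, version 0.11.9), with the members and pathway lists left out and cell type markers kept in. SciPy (version 1.17.1), edgeR (version 4.0.16, TMM factors only), and DESeq2 (version 1.42.0, size factors only) were used. The ratio intervals and the 2-fold call were tested on simulated counts, and the other steps were not. The members and lists were chosen with earlier results of these data known. The genes named were all members, and of each list the most abundant gene and those with the highest and lowest ratio of library 7 over 5. *Ccl4*, *Traf1*, *Sdc1*, *Tnfrsf17*, and the genes that lead a cluster were named after their values were seen. The 2 most similar genes of each member were also named. Of the pathway lists, 1 is not reported here.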

Additional observations from a re-analysis of the deposited data

How the results depend on the processing

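No paired analysis was possible because the barcodes carry no sample or replicate name. For the same reason, the edgeR and DESeq2 comparison of Bregs-TLR with Bregs-CpG was not run and no replicate was left out. Of 440 member ratios of library 7 or 8 over 5 or 6 under 11 alternatives, 0 changed sign. Of 220 for 6 over 5 and 8 over 7, where main ratios were small, 21 did. The 5 members 2-fold apart (31.3% of all genes) became 3 with mitochondrial, ribosomal protein, and immunoglobulin genes out of the denominator (30.2%). They became 3 at a minimum of 50 CPM (34.5%), where *Nfkb2*, *Rela*, and *Tnfaip3*, at most 34.5, 43.6, and 40.2 CPM, were not compared. At a limit of 1.5-fold they became 9 (56.8%). The median gene's log2 ratio of library 7 over 5 went from 0.25 to 0.13 with TMM, 0.14 with DESeq2 size factors, and 0.06 with that denominator. The inhibitor-to-subunit ratio of libraries 5, 6, 7, and 8 was 3.72, 3.54, 3.30, and 3.25 with cells under 5% mitochondrial UMIs, 4.53, 4.71, 3.42, and 3.41 without the clusters led by cycling or plasma cell markers, 3.15, 3.26, 2.81, and 2.76 without *Nfkbiz* and *Bcl3*, and 1.38, 1.36, 0.646, and 0.645 without *Nfkbia*. With cells from 5% to under 10% mitochondrial UMIs, libraries 7 and 8 had 3.19 and 3.14. With the mean of each cell's CPM they had 3.35 and 3.33. With cells thinned to 5000 UMIs, libraries 6 and 8 had 4.57 and 3.35, and without the 5% of cells with the most UMIs, library 8 had 3.31. The highest over the lowest cluster ratio moved from 1.61 to 1.19 in library 5 at a resolution of 0.1. In library 6 it moved from 1.33 to 1.42 at a resolution of 0.5 and to 1.40 with 10 principal components. In library 5 it was 1.97 with 10 principal components, which lay within the wide counting interval of the main value. The cause of these moves was not tested. Intervals cover counting error only and hold nothing of the variation between mice or cultures.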

Other observations

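Although no label assigns libraries to a group, libraries 5 and 6 were alike in the members, as were libraries 7 and 8, and the pairs stood apart. *Tnfaip3* had 14.99 and 14.0 CPM in libraries 5 and 6 and 40.2 and 35.0 CPM in libraries 7 and 8, and *Nfkbiz* had 262, 263, 133, and 128 CPM. The same split was seen in genes outside the members. *Il10* had 13.7, 11.1, 255, and 253 CPM and *Irf4* had 4.91, 6.35, 43.8, and 40.7 CPM in libraries 5 to 8. *Nfkbib*, the gene of IκBβ, had 27.8, 28.3, 53.8, and 50.7 CPM, next to *Nfkbid*, a further nuclear IκB protein, at 15.3, 13.5, 13.2, and 13.2 CPM. These genes were chosen after their values were seen. Of 6 tested plasma cell markers, 2 were at least 2-fold lower in library 7 over 5 (11.8% of all genes). In library 8 over 6, 4 were lower (13%), and 2 were lower in both pairs. None was higher, and of all genes 11.5% were lower and 14% higher in both pairs. *Mzb1* had 1441, 1548, 154, and 157 CPM, and *Jchain* had 36.3, 83.3, 70.9, and 30.1 CPM. Of 9 cycling markers, 2 were at least 2-fold higher (14% of all genes) and 2 were lower (11.5%) in both pairs. *Top2a* had 111.7, 122, 81.3, and 86.0 CPM, *Mcm3* had 48.1, 51.8, 144, and 130.0 CPM, and *Ccnb2* had 12.2, 13.8, 3.13, and 3.11 CPM. *Cd74*, the most abundant B cell marker and the one that stayed within 2-fold, had 6858, 7135, 5915, and 5831 CPM.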
